A study of Aspergillus nidulans with 4 samples.

Results

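Cellulose, xylan and mannan are the main structural polysaccharides of plant cell walls, and filamentous fungi such as Aspergillus nidulans secrete sets of enzymes that cut them into sugars. Cellobiohydrolases and endoglucanases cut the cellulose chain, xylanases and xylosidases the xylan chain, and mannanases and beta-mannosidases the beta-mannan chain, while esterases and arabinofuranosidases remove side groups. In this fungus many of these genes are switched on by the zinc finger activator XlnR and held down on glucose by the carbon catabolite repressor CreA.

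The 76 genes described here, of 10930 in the deposited tables, were chosen from the annotation text, except that AN0472 was left out by its identifier. AN0472 is counted below among the beta-glucosidases. Their text names a cellobiohydrolase or cellobiose function, an endoglucanase, a xylan enzyme, a xylosidase, an arabinofuranosidase, a mannanase or a mannosidase, and does not name pectin, polygalacturonan, 1,3-linked beta-glucan or the Golgi. The text rule used no measured value of these genes, though it was set with earlier results of these data known. Of the 76, 58 are annotated for cellulose, xyloglucan, xylan or beta-mannan. Another 15 are GH76 endo-mannanases, a family that in yeast acts on the fungal wall, and alpha-mannosidases, which trim the mannose of protein glycans. The remaining members are 2 genes annotated for cellobiose transport and the regulator gene xlnR (AN7610), so the label of polysaccharide degradation fits most but not all of the 76.

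RNA of strain AN1404, which lacks the gene of the mitogen-activated protein kinase MpkA, was compared with RNA of the parent AN1405, in 2 libraries each. MpkA acts at the end of the kinase cascade that guards cell wall integrity. The labels give no other allele for either strain and no second deletion clone. Both strains grew as shaken mycelium at 28 degrees in yeast extract medium with 2% glucose at pH 3.3, in a seed culture of 12 hours and a main culture of about 20 hours, without added stress and without cellulose, xylan or mannan in the listed medium. Biological as well as technical replicates are mentioned by the series text, but not which library is of which kind. The p-values and q-values below therefore reflect only how far these libraries lie apart, and that distance may be technical.

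Reads on genes numbered 34871842 and 33027324 for the parent and 31674270 and 31609185 for the deletion strain. The deleted gene, mpkA (AN5666), had 6 and 3 reads in the deletion libraries against 6993 and 6437 in the parental ones. Values below are normalized reads, that is reads per gene divided by a size factor of the library, given for libraries a and b of each strain. These were worked out from the authors' means, as the processing notes describe, and the letters carry no replicate number. A gene is called changed at a q-value under 0.05 in the authors' deposited table. Among members with at least 20 reads in a strain, the median absolute log2 difference between its libraries was 0.0838 in the parental strain (51 genes) and 0.123 in the deletion strain (45 genes). In bulk mycelium, fewer hyphae of a kind and less RNA per hypha cannot be told apart.

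More members were lower than higher in the deletion strain. The authors' deposited table gives a test for 68 members, and 34 of these were called lower, 7 higher and 27 not called. Over all 10505 genes tested it called 72.2%, with 35.9% lower and 36.3% higher. Falls of at least 2-fold were called for 19 members and rises of that size for 4, against 18.1% and 9.12% of all genes in the authors' deposited table. The median log2 change of the 68 was -0.60, beside -0.02 over all genes tested. From the worked-out reads, edgeR's quasi-likelihood test called 37 of 51 members lower and 7 higher, 20 and 4 of them by at least 2-fold, where 86.5% of all genes it tested were called, 44.0% lower and 42.5% higher, and 20.8% lower by at least 2-fold. With the coefficient of variation between samples set to 0.2, in place of the low spread of these libraries, edgeR called 23 members lower and 4 higher, all 4 rises and 20 of the falls being at least 2-fold. Of the calls in the authors' deposited table, those lost in that setting were AN0393, AN0452, AN1742, AN1818, AN1870, AN2217, AN2664, AN2936, AN3733, AN4504 and AN11163 among the falls and AN1041, AN3566 and AN5748 among the rises, with edgeR adjusted p-values from 0.0613 (AN1041) to 0.733 (AN3566). AN0383, AN1477 and AN3860, which edgeR called lower and the authors' deposited table did not, were not called in that setting either. The background in that setting was 43.9% of genes called, 26.7% lower and 17.1% higher, and 20.6% and 9.98% by at least 2-fold.

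The other 8 members, AN3326, AN5267, AN6427, AN6428, AN6472, manF (AN7639), AN8472 and AN9276, had no read in any library. Of the 68 members tested, 23 had a mean under 20 normalized reads over both strains, and of these 2 were called.

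**Figure D1:**
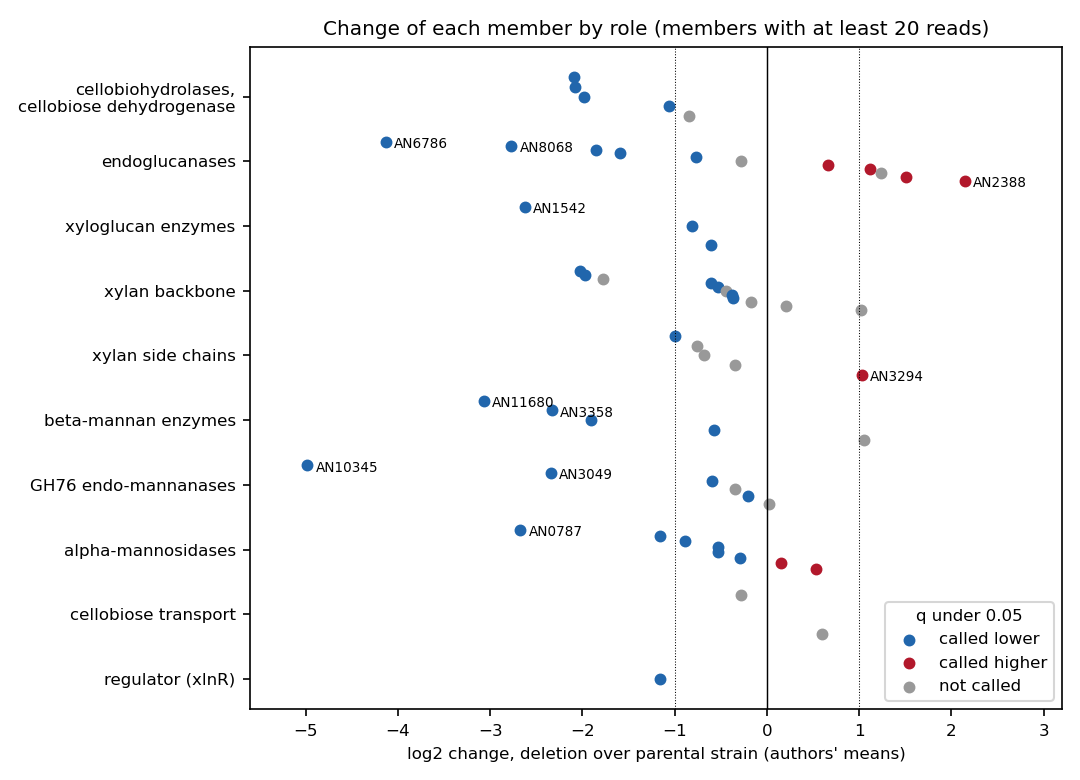
Log2 change of the deletion over the parental strain (x axis, from the authors' means) for members with at least 20 reads over the 4 libraries, by role (y axis); each point is 1 gene, coloured by its call at a q-value under 0.05, and dotted lines mark 2-fold. The cellobiohydrolases lie to the left of 0, the endoglucanases on both sides, and AN6786 and AN10345 farthest left.

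Cellobiohydrolases release cellobiose from the ends of cellulose chains, and cellobiose dehydrogenase oxidizes it. All 5 members of this group had lower means in the deletion strain. Of the 5, 4 were called lower (80.0%, beside 35.9% of all genes). Those 4 each fell 2-fold or more, as 18.1% of all genes did. The most abundant, cbhB (AN0494, positions 3378664 to 3381196 on the plus strand of the files' coordinates, given without chromosome or build), had 1207 and 1178 normalized reads in the parental libraries and 252 and 309 in the deletion libraries. The strains did not overlap, and the gap between them was far wider than the gap within either. In the authors' deposited table cbhB fell 4.25-fold (q = 2.01e-109), and edgeR's quasi-likelihood test on the worked-out reads gave a log2 change of -2.11 with a standard error (SE) of 0.07.

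A second putative cellobiohydrolase gene, AN5176, had 107 and 130 normalized reads in the parental and 32.2 and 28.0 in the deletion libraries. It fell 3.94-fold (q = 3.42e-12) per the authors' deposited table, close to the fall of cbhB at a much lower level. The third, AN1273, fell less, from 371 and 375 to 177 and 182 normalized reads, a 2.08-fold difference (q = 4.99e-14) per the authors' deposited table. The putative cellobiose dehydrogenase gene AN7230 had 89.7 and 94.1 against 20.0 and 23.5 normalized reads and fell 4.22-fold (q = 2.35e-10) per the authors' deposited table. The only member of this group not called was cbhC (AN5282), with 13.0 against 7.25 normalized reads (q = 0.334) per the authors' deposited table. Over the 5 genes, the summed normalized reads were 1785 and 1793 in the parental libraries and 487 and 551 in the deletion libraries, a 3.45-fold lower sum.

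Endoglucanases cut inside the cellulose chain, and this group moved in both directions. The authors' deposited table called 5 lower (38.5%, beside 35.9% of all genes) and 4 higher (30.8%, beside 36.3%). Both shares were thus near the background, and 4 of the 13 tested were not called. By at least 2-fold, 4 were lower and 3 higher, beside 18.1% and 9.12% of all genes. The median log2 change was -0.28.

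The largest fall of the group was in AN6786, a putative beta-1,4-endoglucanase (positions 3163296 to 3164357, minus strand). It had 357 and 328 normalized reads in the parental libraries and 12.2 and 26.8 in the deletion libraries. The fall was 17.5-fold (q = 4.31e-75) per the authors' deposited table and the log2 change from edgeR was -4.14 (SE 0.19), on 11 and 24 reads in the deletion libraries. These deletion libraries differed by 1.13 on the log2 scale, the widest gap between libraries of a strain among members with at least 20 reads, yet both lay far below the parental libraries. AN6786 had the fall of rank 177 among 9572 genes tested with at least 20 reads over the 4 libraries.

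The second largest endoglucanase fall was in AN8068, with 447 and 549 against 64.5 and 81.6 normalized reads and a 6.81-fold difference (q = 7.84e-21) per the authors' deposited table. The most abundant parental endoglucanase gene, AN7735, had 1276 and 1250 against 353 and 349 normalized reads. Its log2 change was -1.85 (q = 1.35e-96) per the authors' deposited table and -1.87 (SE 0.06) in edgeR. Smaller falls were called for AN10419, 3.01-fold (q = 0.0318), and AN7891, 1.71-fold (q = 0.02), in the authors' deposited table. AN10419 rested on 17 and 24 reads against 5 and 6, and DESeq2 did not call it (adjusted p = 0.0598).

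Against these, AN2388 (positions 3764749 to 3766523, plus strand), also a putative beta-1,4-endoglucanase, rose from 161 and 167 to 684 and 766 normalized reads. Both deletion libraries were above both parental libraries, and the rise was 4.42-fold (q = 1.76e-49) per the authors' deposited table. AN5214 rose from 65.3 and 81.2 to 210 and 206 normalized reads, 2.84-fold (q = 1.30e-14) per the authors' deposited table. AN1041 rose 1.59-fold (q = 6.22e-15), from 621 and 579 to 934 and 969 normalized reads, and became the most abundant endoglucanase transcript of the deletion strain by normalized reads. The rise of eglD (AN1602), 2.18-fold (q = 0.0314) per the authors' deposited table, rested on 18 and 13 reads against 31 and 23. Without deletion library a eglD was not called in edgeR (adjusted p = 0.058), and DESeq2 did not call it with all libraries (adjusted p = 0.0652). As falls and rises ran against each other, the summed normalized reads of the 14 endoglucanase genes were 3301 and 3303 in the parental and 2542 and 2689 in the deletion libraries, a 1.26-fold lower sum.

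**Figure D2:**
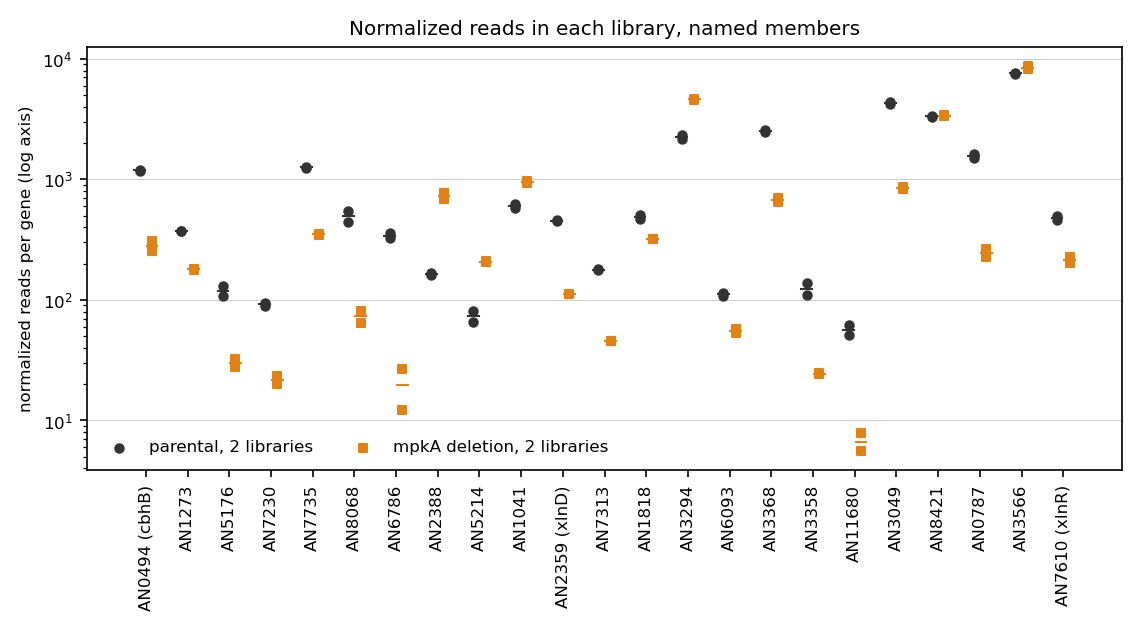
Normalized reads (y axis, log scale) of 23 named members in the 2 libraries of each strain; points are libraries and short lines are their means. The strains do not overlap in any gene shown except AN8421, and AN2388, AN5214, AN1041, AN3294 and AN3566 are higher in the deletion libraries.

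Per kb of gene span, which includes introns, the order of the endoglucanase genes AN7735, AN6786, AN1041 and AN2388 changed between the strains. In the parental strain AN7735 had 881 normalized reads per kb, AN6786 322, AN1041 252 and AN2388 92.4. In the deletion strain AN2388 had 408 per kb, AN1041 399, AN7735 245 and AN6786 18.4. Other endoglucanase genes lay between these: AN8068 (228) and AN3860 (156) above AN2388 in the parental strain. In the deletion strain AN5214 (163) and AN3860 (128), among others, lay above AN6786. AN2388 and AN1041 lay within a few percent of each other in the deletion strain, so the data give no order between them.

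Xyloglucan is a hemicellulose that coats cellulose. All 3 members annotated for it were called lower in the authors' deposited table, which called 35.9% of all genes lower. Only 1 of the 3 fell at least 2-fold, beside 18.1% of all genes. AN1542, an oligoxyloglucan reducing end-specific cellobiohydrolase gene, fell 6.17-fold (q = 6.44e-11) per the authors' deposited table, from 69.6 and 74.7 to 13.3 and 10.1 normalized reads. The alpha-xylosidase gene AN7505 fell 1.75-fold (q = 1.76e-10) and the endoglucanase gene xgeA (AN0452) 1.52-fold (q = 0.0055) per the authors' deposited table. For xgeA the parental libraries themselves stood apart, at 439 and 350 normalized reads, against 246 and 273 in the deletion libraries.

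Xylanases and xylosidases act on the xylan backbone. The authors' deposited table called 6 of the 15 lower (40.0%, beside 35.9% of all genes) and 0 higher (beside 36.3%). The share called lower was thus near the background, and 2 of the 6 fell at least 2-fold (13.3% of the 15, beside 18.1%). Not called was, among others, AN1477, with 117 and 124 against 82.3 and 93.9 normalized reads (q = 0.0574 in the authors' deposited table). The edgeR filter, which drops genes with few reads, kept 8 of the 15. Of these, edgeR's quasi-likelihood test called 7 lower and 0 higher, beside 44.0% and 42.5% of all genes it tested.

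The beta-xylosidase gene xlnD (AN2359), whose product releases xylose from short xylan chains, had 460 and 447 normalized reads in the parental and 111 and 112 in the deletion libraries. It fell 4.07-fold (q = 1.27e-43) per the authors' deposited table, with a log2 change of -2.04 (SE 0.10) in edgeR. The putative xylosidase gene AN7313 fell almost as far, from 178 and 179 to 45.6 and 45.9 normalized reads, 3.91-fold (q = 1.18e-17) per the authors' deposited table.

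Those other members of the group that were called fell less than 2-fold. The endoxylanase gene AN1818, the most abundant of the group by normalized reads, had 474 and 502 against 321 and 321. It fell 1.52-fold (q = 2.15e-07) per the authors' deposited table, AN1870 1.44-fold (q = 7.55e-06), AN2664 1.30-fold (q = 0.0329) and AN2217 1.29-fold (q = 0.0061). DESeq2 did not call AN2664 (adjusted p = 0.0714). Another endoxylanase gene, AN9365, had 36.6 and 31.4 against 36.7 and 23.5 normalized reads, with overlapping strains (q = 0.756 in the authors' deposited table). The endoxylanase genes AN3613 and AN7401 had no read in the deletion libraries and only 2 and 4 reads over both parental ones.

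Among the xylan side chain enzymes, the authors' deposited table called 1 of 8 tested lower and 1 higher, both acetylxylan esterase genes. Each is 12.5% of the 8, beside 35.9% of all genes lower and 36.3% higher. AN3294, an acetylxylan esterase gene whose product removes acetyl groups from xylan, was the most abundant member of the 58 plant polysaccharide genes in the deletion strain. It rose from 2168 and 2342 to 4574 and 4637 normalized reads, 2.04-fold (q = 5.95e-101) per the authors' deposited table, with a log2 change of 1.01 (SE 0.04) in edgeR. A second acetylxylan esterase gene, AN6093, moved the other way, from 115 and 108 to 57.8 and 53.7 normalized reads, 2.00-fold lower (q = 9.27e-05) per the authors' deposited table. None of the other 8 members of the side chain group was called, and 2 of them had no read. The most abundant of them, the putative arabinofuranosidase gene AN2533, had 52.4 against 41.3 normalized reads (q = 0.365) per the authors' deposited table. AN3294 made up 92.1% of the group's summed normalized reads in the parent and 97.5% in the deletion strain. The rise of that group's sum, from 2369 and 2531 to 4694 and 4754 normalized reads, was therefore the rise of 1 gene.

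Enzymes of beta-mannan, the chain of softwood and seed hemicellulose, included 7 members with a test. The authors' deposited table called 4 of the 7 lower (57.1%, beside 35.9% of all genes) and 0 higher (beside 36.3%). At least 2-fold lower were 3 of the 7 (42.9%, beside 18.1% of all genes). The other 4 of the 11 had no reads.

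The beta-mannosidase gene AN3368 (positions 941626 to 944774, plus strand) had 2578 and 2466 normalized reads in the parental and 702 and 644 in the deletion libraries. It fell 3.75-fold (q = 4.79e-179) per the authors' deposited table, with a log2 change of -1.92 (SE 0.05) in edgeR, and held 76.9% of the parental normalized reads of the group. The endo-mannanase gene AN3358 fell 5.04-fold (q = 9.01e-14) per the authors' deposited table, from 110 and 137 to 24.5 and 24.6 normalized reads. AN11680, another putative beta-mannosidase gene, had 71 and 55 reads against 5 and 7, an 8.41-fold fall (q = 2.65e-10) per the authors' deposited table. Another gene with that annotation, AN1742, fell 1.49-fold (q = 1.18e-07) per the authors' deposited table. Over the 11 genes the summed normalized reads were 3313 and 3248 in the parental and 1146 and 1050 in the deletion libraries, a 2.99-fold lower sum.

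**Figure D3:**
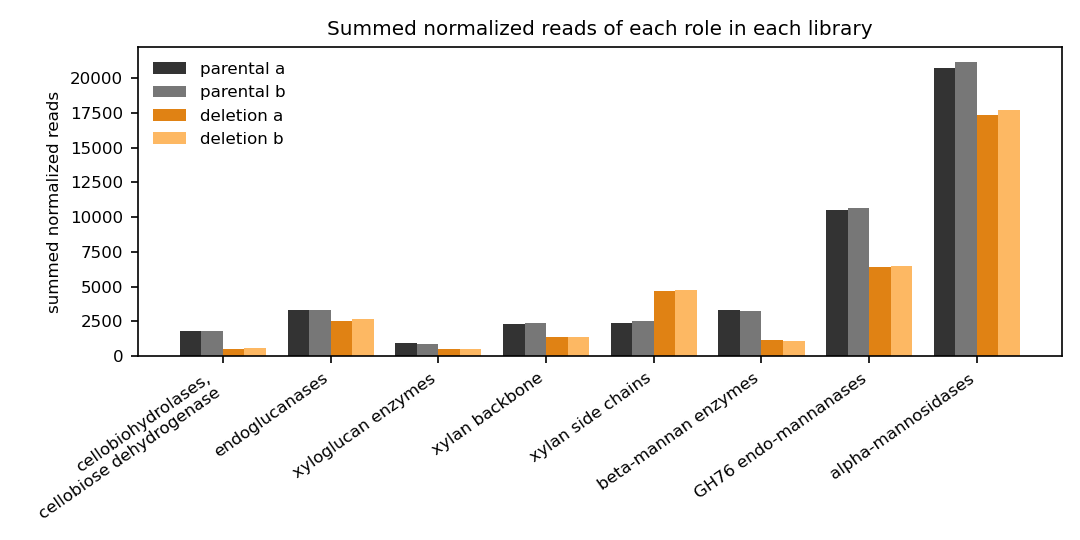
Summed normalized reads (y axis) of the members of each role (x axis) in each of the 4 libraries. The deletion bars are lower than the parental ones in 7 of the 8 roles shown, and higher for the xylan side chain enzymes, a sum held mostly by AN3294.

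The remaining mannose enzymes, as groups, had the highest summed normalized reads of all roles in both strains. Single members ranged from no read (AN6472) to the most abundant of the 76 (AN3566). GH76 endo-mannanases had 4 of 6 tested members called lower (66.7%, beside 35.9% of all genes), 0 higher and 2 not called in the authors' deposited table. Of the 6, 2 fell at least 2-fold (33.3%, beside 18.1% of all genes). AN3049 had the highest parental level of the family, 4223 and 4375 normalized reads, and 858 and 837 in the deletion libraries. It fell 5.07-fold (q = 0 as listed) per the authors' deposited table, with a log2 change of -2.36 (SE 0.04) in edgeR. AN10345 had 43 and 36 reads in the parental libraries and 0 and 2 in the deletion libraries, a ratio of 31.7 (95% interval 8.50 to 267, exact binomial, counting error only). AN4504 fell 1.51-fold (q = 1.46e-16) and AN0393 1.15-fold (q = 0.0138) per the authors' deposited table. AN0393 overlaps AN0392 on the opposite strand over 243 bp, 10.5% of its span, and the library kit does not mark strand. AN8421, with 3364 and 3284 against 3357 and 3400 normalized reads, had overlapping strains (q = 0.704 in the authors' deposited table), and was the most abundant family member of the deletion strain.

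Among 8 alpha-mannosidases, the authors' deposited table called 6 lower (beside 35.9% of all genes) and the other 2 higher (beside 36.3%). By at least 2-fold, 2 of the 8 were lower and 0 higher, beside 18.1% and 9.12% of all genes. The putative 1,2-alpha-mannosidase gene AN0787 had 1518 and 1615 normalized reads in the parental and 265 and 227 in the deletion libraries, a 6.37-fold fall (q = 1.09e-172) per the authors' deposited table. A second gene with the same annotation, AN5748, rose 1.45-fold (q = 5.03e-13) per the authors' deposited table, from 1044 and 1013 to 1547 and 1426 normalized reads. The third, AN0551, fell 2.24-fold (q = 5.0e-04) per the authors' deposited table, from 67.0 and 87.6 to 28.9 and 40.3 normalized reads. AN2045, with a calcium-binding mannosidase domain, fell 1.85-fold (q = 3.71e-65) per the authors' deposited table, from 3586 and 3617 to 1934 and 1963 normalized reads. Smaller falls were called there for AN2936, 1.45-fold (q = 7.91e-20), AN3733, 1.45-fold (q = 9.95e-14), and AN11163, 1.22-fold (q = 1.17e-08). The most abundant of all 76 members, the putative alpha-mannosidase gene AN3566, had 7464 and 7667 against 8176 and 8677 normalized reads, 1.11-fold higher (q = 0.0024) per the authors' deposited table. Scaled by library totals in edgeR, its log2 change was -0.06, so its direction depends on the scaling.

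Both genes annotated for cellobiose transport had few reads and were not called. AN2814 had 8.09 against 6.69 normalized reads (q = 0.893) and AN8347 10.7 against 16.2 (q = 0.438), parental before deletion, in the authors' deposited table.

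The 76 members together took 0.151% and 0.152% of all reads on genes in the parental libraries and 0.0985% and 0.1% in the deletion libraries. The 58 genes for plant polysaccharides took 0.0461% in both parental libraries and 0.0305% and 0.0309% in the deletion libraries. Size factors scale the libraries otherwise than library totals, so the fall differs in size between shares of reads and normalized reads. By normalized reads the sum of the 58 genes fell 1.30-fold, less than most single genes. AN3294, which rose, alone held 42.5% of that sum in the deletion strain. In the parental strain the largest share, 18.0%, belonged to AN3368.

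The share of members called depended on how strongly they were expressed. Among genes with a mean of 500 or more normalized reads over both strains, 11 of 16 members (68.8%) were called lower, beside 34.9% of all 6188 genes tested at that level, and 4 were called higher, beside 50.9% of all genes. GH76 endo-mannanases and alpha-mannosidases made up 11 of those 16. By at least 2-fold, 5 of the 16 (31.2%) were called lower, beside 11.7% of all genes at that level. Between 100 and 500 normalized reads, 13 of 18 members (72.2%) were called lower, beside 51.9% of all genes at that level, and 6 (33.3%, beside 31.1%) by at least 2-fold. Between 20 and 100, 8 of 11 (72.7%, beside 50.8%) were called lower, and 6 (54.5%, beside 41.5%) by at least 2-fold. Under 20 normalized reads, 2 of 23 members (8.70%) were called lower and 0 higher, beside 14.2% and 4.31% of all genes. These shares are descriptions, and the difference between members and other genes was not tested.

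**Figure D4:**
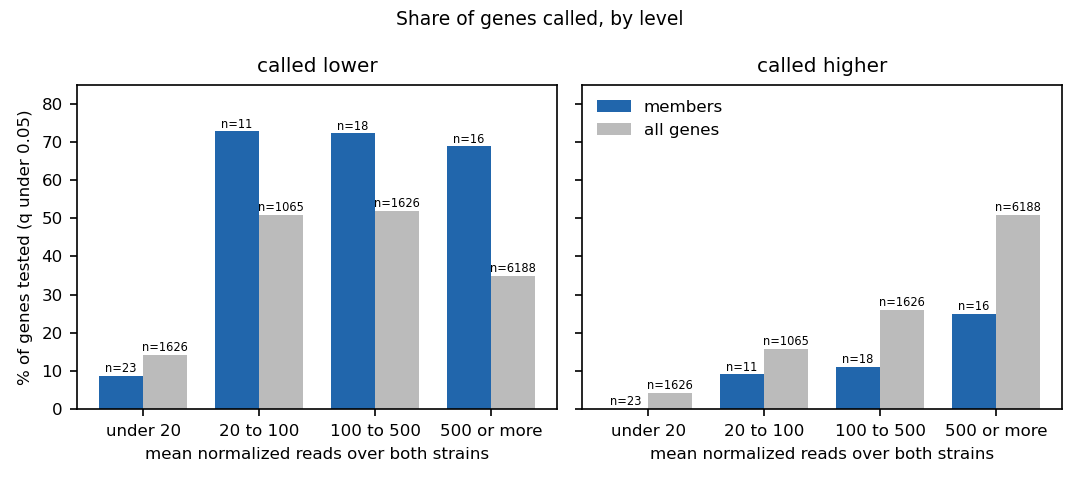
Percent of genes tested that were called lower (left) and higher (right) in the deletion strain at a q-value under 0.05, by mean normalized reads over both strains (x axis), for members and for all genes; n is the number of genes tested. At 100 to 500 normalized reads 72.2% of members and 51.9% of all genes were called lower.

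Positions of the members gave a few values that the annotation rule did not use. Members lay on both strands, 38 on each, with a median span of 1690 bp, beside 1661 bp for all genes. Gene order was taken from RefSeq, assembly ASM1142v1, where all 76 members were found. Within 3 positions of each other in that order lay 4 pairs of members: AN3049 with AN3046, AN3294 with AN3297, AN6427 with AN6428, and AN7275 with AN10919. None of these pairs had both members called. For AN11680 the order and the files' coordinates disagreed, as its RefSeq neighbour AN2728 lay 326561 bp away by those coordinates. They put AN11680 (2681845 to 2684463, plus strand) close to AN10345 (2679619 to 2681181, minus strand), if on the same chromosome, and both were called lower. The files name no chromosome, so this pair was not counted.

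Around AN6786, 5 of the 6 genes within 3 positions were called lower and 0 higher by the authors' deposited table, which called 35.9% of all genes lower. The same counts, 5 lower and 0 higher, were found around the members AN2664, AN5267 and AN7275. The putative transcription factor gene AN6788, 2 positions away, had 9.49 against 5814 normalized reads in the authors' deposited table, and AN6789, of unknown function, 51.3 against 2811, 54.8-fold lower. AN6784, annotated as an aromatic prenyltransferase, fell 11.9-fold per the authors' deposited table. None of the neighbours of AN6786 that were called lower is itself a member. Around AN2388, an endoglucanase gene that rose, all 6 such genes were called lower in the authors' deposited table, again beside 35.9% of all genes. Among them were AN2389, 5.69-fold lower, and AN2386, 4.24-fold lower. Both neighbourhoods were singled out after their values were seen.

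Of 5 listed regulator genes, 4 were called lower, 0 higher and 1 not called by the authors' deposited table, which called 35.9% of all genes lower. The activator gene xlnR (AN7610), itself 1 of the 76 members, had 494 and 459 normalized reads in the parental and 226 and 201 in the deletion libraries. It fell 2.23-fold (q = 4.87e-20) per the authors' deposited table, with a log2 change of -1.18 (SE 0.09) in edgeR. The repressor gene creA (AN6195) was far more abundant, with 15427 and 15237 against 4262 and 4037 normalized reads, and fell 3.69-fold (q = 0 as listed) per the authors' deposited table. AN0388, annotated as a zinc cluster factor for pentose catabolism genes, fell 2.26-fold (q = 2.27e-27) per the authors' deposited table. The zinc cluster factor gene AN5808 fell 1.49-fold (q = 6.12e-15) per the authors' deposited table. AN3369, next to the beta-mannosidase gene AN3368 and also annotated as a zinc cluster factor, was not called, with 434 against 376 normalized reads (q = 0.094) per the authors' deposited table.

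Other enzymes act after or beside the members. Beta-glucosidases split cellobiose into glucose, and of 25 genes with that word in their text 14 were called lower, 3 higher and 8 not called in the authors' deposited table. The list includes genes for 1,3-linked glucan and a steryl glucosidase, and without these 10 of 17 were lower, 1 higher and 6 not called. By at least 2-fold, 7 of the 25 (28.0%) and 7 of the 17 (41.2%) were lower, beside 18.1% of all genes in the authors' deposited table. Lower by any amount were 35.9% of all genes. AN4102 fell 9.22-fold (q = 0 as listed) per the authors' deposited table, from 2454 and 2450 to 285 and 247 normalized reads. AN7865 fell 12.0-fold (q = 2.58e-33) per the authors' deposited table, from 175 and 161 to 13.3 and 14.5 normalized reads. AN3903 rose 2.16-fold (q = 3.91e-31), from 466 and 496 to 994 and 1087 normalized reads.

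Other side chain enzymes had 5 of 6 genes called lower (83.3%, beside 35.9% of all genes) and 0 higher by the authors' deposited table. The feruloyl esterase gene AN1772, whose product frees ferulic acid from xylan, fell 8.31-fold (q = 2.61e-154) per the authors' deposited table, from 986 and 1043 to 136 and 108 normalized reads. The 4 others called were alpha-galactosidases or a relative, and except AN7624, 1.74-fold lower (q = 0.0412) per the authors' deposited table, they rested on 4 or fewer reads over both deletion libraries. Genes of pentose use turn released xylose and arabinose into pentose phosphate intermediates. Among 7 such genes, 4 were called lower (57.1%, beside 35.9% of all genes), 0 higher and 3 not called in the authors' deposited table. The putative arabinitol dehydrogenase gene AN4336 fell 25.7-fold (q = 5.40e-103) per the authors' deposited table, from 436 and 423 to 23.4 and 10.1 normalized reads. The xylose reductase gene AN0423 fell 2.27-fold (q = 9.12e-58), while the xylitol dehydrogenase gene AN9064 was not called (q = 0.406) per the authors' deposited table. No gene text matched the words chosen for oxidative cellulose enzymes.

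**Figure D5:**
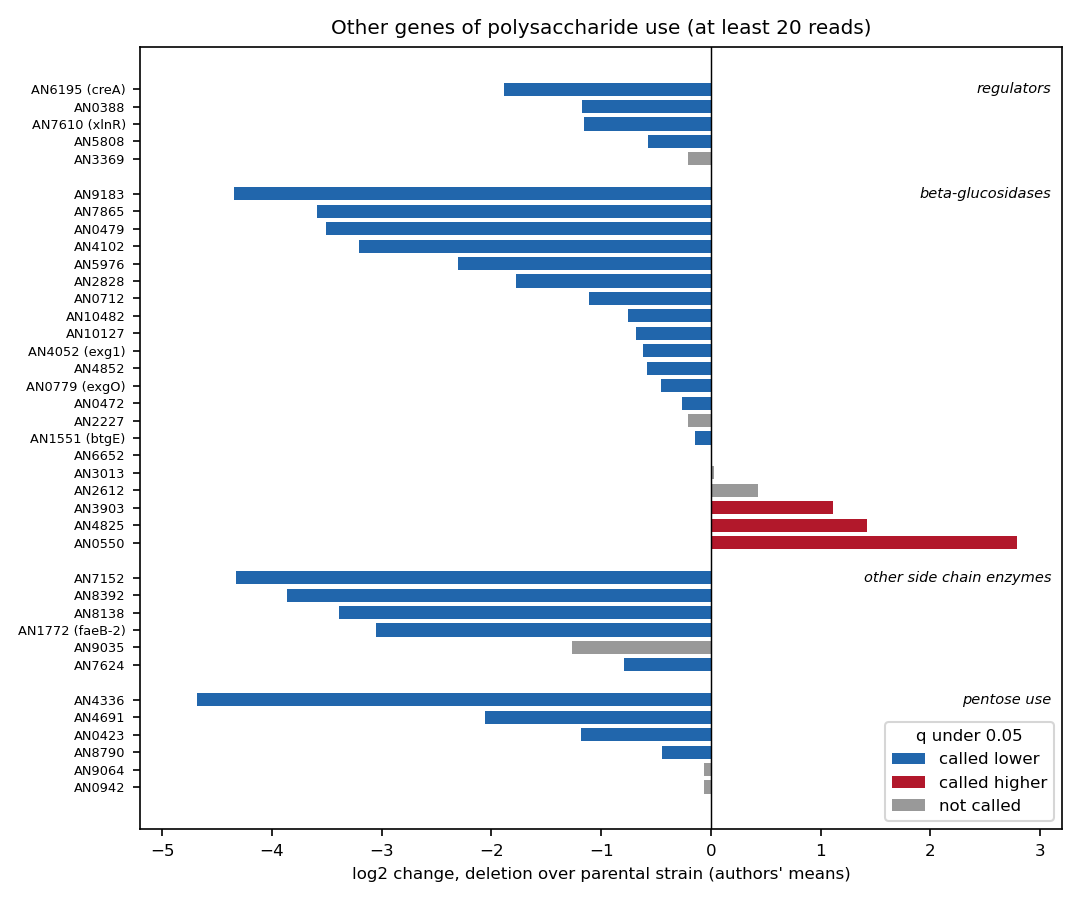
Log2 change of the deletion over the parental strain (x axis, from the authors' means) for regulators, beta-glucosidases, other side chain enzymes and pentose use genes with at least 20 reads; each bar is 1 gene, coloured by its call at a q-value under 0.05. All regulators point to the left, with creA at -1.89, and AN4336 at -4.68 is the longest bar.

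Markers of conidiating cells also differed between the strains. Of 6 such genes, the authors' deposited table called 4 lower (66.7%, beside 35.9% of all genes): brlA, abaA, rodA and the pigment synthase gene AN8209. It called 1 higher (the laccase gene yA) and 1 was not called (wetA). The summed normalized reads of the 6 were 1849 and 1730 in the parental and 826 and 784 in the deletion libraries, and none was at 0. Most of that difference was abaA, with 1153 and 1120 against 127 and 125 normalized reads. Without abaA, a sum added after seeing the data, the values were 696 and 610 in the parental and 699 and 659 in the deletion libraries, and yA was 4.26-fold higher in the deletion strain per the authors' deposited table. Their part in the changes of the polysaccharide enzymes was not tested.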

How the data were processed

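Mycelial RNA was measured in 2 libraries per strain with a TruSeq RNA kit, per the labels' protocols. Bowtie2, HTSeq and DESeq were used, per the submitters' processing notes; their versions, the build and the counting options are not stated there. The authors deposited signal values, the means over both libraries of a strain of reads divided by size factors. The ratio, or fold, in the authors' deposited table is parental over deletion strain, and log2 changes here are turned to deletion over parental. The authors' own p-values and q-values were used as the file headers name them, with a q of 0 printed as listed. Left out were 2 columns that match no sample.

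Because a strain's mean appears in more than 1 table, under unlike size factors, the reads of both its libraries could be solved for. Whole reads were recovered for 100% of 10930 genes in each strain, within 0.25 reads. On simulated data this step recovered the reads of 100% of genes exactly. In simulated counts edgeR called 87% of genes changed 1.5-fold and 96% of those changed 3-fold. That simulation used the low spread of these libraries (coefficient of variation 0.023), so it cannot show how calls hold under a wider biological spread.

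The main result is the authors' comparison over all genes. The alternative with per-library values was edgeR 4.0.16 (quasi-likelihood, TMM, filterByExpr, Benjamini-Hochberg; R 4.3.3), with an SE taken as the change divided by the root of F and printed only above 20 reads per strain. Others were DESeq2 1.42.0, limma 3.58.1 (prior count 2), other scalings, no filter, a q of 0.01, each library left out, and, added later, a coefficient of variation of 0.2. For 1 to 3 reads, ratios have exact 95% binomial intervals.

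Members, lists and tests were chosen with earlier results of these data known. The named members are, per role, the most abundant, the largest called rise and fall, and AN6786, with other called members by fold and q. The conidiation markers were added after seeing the data. Symbols come from RefSeq. Promoter and protein sequences were not used here.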

Additional observations from a re-analysis of the deposited data

How the results depend on the processing

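The count of members called lower was 34 in the authors' comparison and 23 to 42 over all alternatives, and the count at least 2-fold lower was 19 and 18 to 23. In edgeR with the coefficient of variation set to 0.2, an alternative added after seeing the data, 4 members were higher in place of 7, and with library totals 2 in place of 4 were higher by at least 2-fold. The median log2 change of the members, -0.60 over 68 genes, was -0.69 in edgeR (51 genes), -0.68 with DESeq2 size factors, -0.69 with the coefficient of 0.2, -0.89 with library totals and -0.74 to -0.60 without any 1 library. Library totals moved the median of all genes to -0.21. The sign turned for AN3566 with library totals (-0.059), and for 3 members not called: AN8421 with library totals (-0.19) and without 1 library (-0.0099 to 0.022), AN8477 without 1 library (-0.044 to 0.81) and AN9365 without 1 library (-0.54 to 0.090). The cause of these shifts was not tested. Of the 34 members called lower, 21 kept the call in every alternative that tested them, and of the 7 called higher, 3. No paired analysis was possible because the recovered libraries carry no replicate number. With 2 libraries against 2, an exact permutation test cannot go below p = 0.333.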
